A study of Mus musculus with 4 samples.

Results

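The 10 genes described here are targets of the transcription factor p53 that lie outside the BCL2 family: Cdkn1a, Ccng1, Plk2, Mdm2, Trp53inp1, Zmat3, Aen, Phlda3, Eda2r and Gdf15. They were taken as a list by name and matched by Ensembl identifier among 52636 genes, and all 10 were found. RNA was measured by bulk sequencing in AnnexinV-positive (dying) and AnnexinV-negative (living) cells, 2 libraries each, sorted from corpus callosum, the large fibre tract between the cerebral hemispheres. Every mouse was a Mertk knockout that had eaten chow with 0.2% cuprizone for 4 weeks, so the knockout and the diet are shared by both groups and neither has a control here. Mertk is a receptor with which phagocytes take up apoptotic cells. Cuprizone is a copper chelator toxic to oligodendrocytes, and annexin V binds phosphatidylserine on the surface of dying cells. The sources used here do not give age, sex, the number of animals or how the Mertk allele was made. Nothing states that a group's libraries came from different animals, so p-values cover only the spread between these libraries, which may be technical.

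p53 is held low in unstressed cells by the ubiquitin ligase Mdm2 and accumulates after DNA damage and other stresses. It binds response elements made of paired half-sites and turns on genes that stop the cell cycle, repair DNA or kill the cell, along with genes, Mdm2 among them, that shut p53 off again. Its targets are read here as messenger RNA, which says nothing of p53 protein.

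The promoters are shown first because all 10 genes share a regulator. RefSeq promoter sequences (GRCm38.p6) were held for 8 of the 10, all but Trp53inp1 and Zmat3. A p53 half-site consensus of 10 letters, searched on both strands, was present within 250 bases before a start of 4 of these 8 genes, Cdkn1a, Mdm2, Ccng1 and Aen, against 7.13% of 32851 mouse promoters. Aen, Cdkn1a and Gdf15 have 2 RefSeq starts each, which gives them more chances of a match. Each half-site is in capitals within 30 bases, 5′ to 3′ on the gene's strand:
Aen (chr7:78895927-78895956, plus strand): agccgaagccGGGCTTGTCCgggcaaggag
Ccng1 (chr11:40755452-40755481, minus strand): agacctgcccGGGCAAGCCTtggcactgaa
Cdkn1a, farther site (chr17:29090896-29090925, plus strand): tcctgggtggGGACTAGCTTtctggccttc
Cdkn1a, nearer site (chr17:29090918-29090947, plus strand): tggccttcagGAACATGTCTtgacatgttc
Mdm2 (chr10:117710925-117710954, minus strand): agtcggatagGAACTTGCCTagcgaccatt
The farther Cdkn1a half-site begins 73 bases before the first of its 2 RefSeq starts and the nearer one 51 bases before it. The window before the second Cdkn1a start, farther into the gene, had no match. In Mdm2 the match begins 186 bases and in Ccng1 185 bases before the start, and in Aen 121 bases before the second of its 2 RefSeq starts.

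Phlda3 and Eda2r, the members with the largest differences below, had no half-site match in their windows, which says only that these letters are not there. For each, 150 bases ahead of the gene are shown with the GC box GGGCGG, the CCAAT box CCAAT and the TATA box TATAAA in capitals (either strand, none overlapping another):
Phlda3 (chr1:135765935-135766084, plus strand): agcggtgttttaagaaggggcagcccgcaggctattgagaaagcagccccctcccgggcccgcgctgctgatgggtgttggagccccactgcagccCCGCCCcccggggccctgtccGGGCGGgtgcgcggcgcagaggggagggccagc
Eda2r (chrX:97377217-97377366, minus strand): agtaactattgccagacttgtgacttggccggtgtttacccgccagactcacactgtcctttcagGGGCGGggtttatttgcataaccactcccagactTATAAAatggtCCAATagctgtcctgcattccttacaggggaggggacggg
Of these 3 motifs Phlda3 has only GC boxes, while Eda2r holds 1 match to each. Whatever else they hold, 32.7% of mouse promoters have a GC box in the 250 bases before the start, 33.8% have CCAAT and 12.4% have TATAAA. Of the 4 members that were lower in AnnexinV-positive cells, Ccng1 and Aen had a half-site and Phlda3 and Eda2r had none, and of the 4 other members with a promoter, Cdkn1a and Mdm2 had one and Plk2 and Gdf15 had none.

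Depth was about 67500000 and 60100000 reads in genes in AnnexinV-positive libraries 1 and 2, and about 50500000 and 43300000 in AnnexinV-negative libraries 1 and 2, as recovered from the deposited values. Values are as the authors deposited them and are called RPKM here: reads per kilobase of exon times a factor for each library. That factor is not depth alone. A read per kilobase counted for 0.0101 and 0.0116 in AnnexinV-positive libraries, against 0.00833 and 0.0103 in the shallower AnnexinV-negative libraries. Counts of genes higher or lower depend on this factor. A gene was tested where it reached an RPKM of 1 in at least 2 libraries, which 10927 genes did, and called where limma's Benjamini-Hochberg adjusted p over all of them was under 0.05. Log2 fold changes are AnnexinV-positive minus AnnexinV-negative on the log2(RPKM + 0.1) scale, which understates the change of low genes. Over all genes tested, 40% were called, 30.8% higher and 9.26% lower in AnnexinV-positive cells. Their median log2 fold change was 0.45, so most genes tested were higher in AnnexinV-positive libraries on the deposited scale.

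Among the members, 4 fell in AnnexinV-positive cells (Phlda3, Eda2r, Aen and Ccng1) and none rose. Another 5 were tested and not called, and Zmat3 did not reach the RPKM minimum in any library. Phlda3 was 23.3-fold lower by the ratio of group means, Eda2r 10.1-fold, Aen 2.06-fold and Ccng1 1.62-fold. In bulk RNA, fewer cells of a type and less RNA per cell cannot be told apart. The calls are 4 of 9 tested members lower, set against 9.26% of genes tested, and 0 of 9 higher, set against 30.8%. Eda2r passed the minimum only through the AnnexinV-negative libraries, where it is high, so its pass and its difference are not independent. The other 8 tested members reached it in all 4 libraries. Without any minimum, where all 10 members are among the 44826 genes tested, 3 were lower (Phlda3, Eda2r and Aen) and 0 higher, against 5.55% of those genes lower. The pattern of single libraries is in the plot of RPKM by library.

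**Figure D1:**
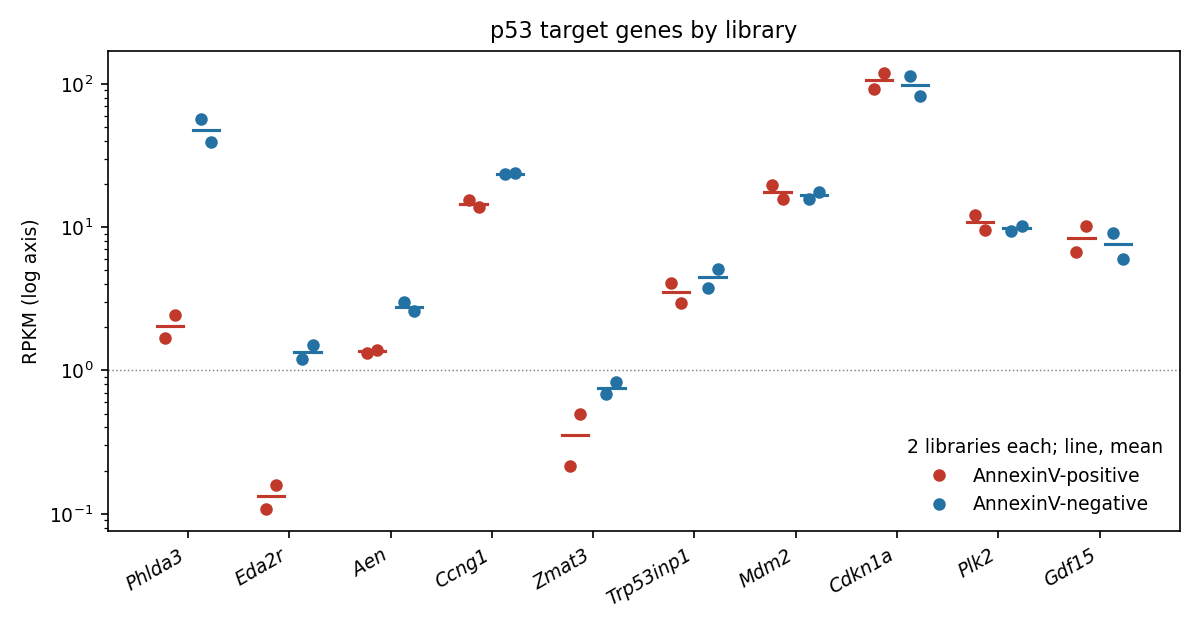
RPKM of the 10 members in each library (log axis), AnnexinV-positive in red and AnnexinV-negative in blue, with a point per library, a line at the mean of 2 and a dotted line at an RPKM of 1. The groups lie apart for Phlda3, Eda2r, Aen, Ccng1 and Zmat3 and overlap for the other 5.

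Cell cycle genes came out unequal. Cdkn1a encodes p21, the inhibitor of cyclin-dependent kinases through which p53 arrests the cycle (chromosome 17, 29090976 to 29100727, plus strand, GRCm38). It had an RPKM of 92.7 and 119.7 in AnnexinV-positive libraries, against 112.9 and 82.3 in AnnexinV-negative libraries. The groups overlap, each with a high and a low library, and Cdkn1a was the highest member in all 4. Means were 106.2 ± 19.1 in AnnexinV-positive and 97.6 ± 21.6 in AnnexinV-negative libraries (SD, n = 2 each). Its log2 fold change of 0.13 (SE 0.23) was not called (limma adjusted p 0.669), with a 95% interval of -0.42 to 0.67. Of its exon bases, 7.68% are shared with a gene on the other strand, whose reads a library without strand cannot set apart. Ccng1 encodes cyclin G1, an atypical cyclin that brings the phosphatase PP2A to Mdm2 (chromosome 11, 40748552 to 40755311, minus strand). Its RPKM was 15.4 and 13.8 in AnnexinV-positive libraries, against 23.6 and 23.7 in AnnexinV-negative libraries, which nearly coincide and lie above both. Ccng1 fell by 0.69 on the log2 scale (SE 0.17, limma adjusted p 0.0206). The call rests on both AnnexinV-positive libraries: the adjusted p was 0.0747 without the first and 0.158 without the second, and 0.0525 with no minimum on RPKM. Plk2, a polo-like kinase of centriole duplication and stress responses (chromosome 13, 110395046 to 110400844, plus strand), had an RPKM of 12.1 and 9.61 in AnnexinV-positive libraries, against 9.43 and 10.15 in AnnexinV-negative libraries. The groups overlap, and its log2 fold change was 0.14 (interval -0.32 to 0.60, limma adjusted p 0.574).

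The feedback gene Mdm2 (chromosome 10, 117688875 to 117710758, minus strand) had an RPKM of 19.6 and 15.6 in AnnexinV-positive libraries, against 15.8 and 17.7 in AnnexinV-negative libraries. Both AnnexinV-negative values fall between the AnnexinV-positive ones. Its log2 fold change was 0.06, the nearest to 0 of the members (interval -0.40 to 0.52, limma adjusted p 0.808). Trp53inp1, a nuclear protein that adds to p53 activity and to autophagy (chromosome 4, 11156431 to 11174379, plus strand), had 4.11 and 2.93 RPKM in AnnexinV-positive libraries, against 3.79 and 5.14 RPKM in AnnexinV-negative libraries. The groups overlap. Its log2 fold change was -0.34 (interval -0.93 to 0.26, limma adjusted p 0.303), and of the 5 tested members that were not called it is the one whose interval lies below the median of all genes tested.

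Members that act in RNA handling and DNA breakdown were low in level. Zmat3 encodes a zinc finger protein that binds RNA (chromosome 3, 32334792 to 32366014, minus strand), and had an RPKM of 0.214 and 0.501 in AnnexinV-positive libraries, against 0.687 and 0.827 in AnnexinV-negative libraries. Both AnnexinV-positive values are below both others, but the 2 differ from each other by more than the groups' nearest libraries do. It was not tested in the main comparison. With no minimum its log2 fold change was -0.98 (SE 0.38, limma adjusted p 0.161), and was not called. Aen encodes the apoptosis-enhancing nuclease (chromosome 7, 78895854 to 78911209, plus strand). Its RPKM was 1.33 and 1.39 in AnnexinV-positive libraries, against 2.998 and 2.586 in AnnexinV-negative libraries. The groups are well apart, and Aen fell by 0.99 on the log2 scale (SE 0.22, limma adjusted p 0.0133). Without AnnexinV-positive library 1 or 2 the adjusted p was 0.0640 or 0.0593, with the fold change at -0.96 or -1.02.

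Phlda3 differed most. It encodes a protein that is little more than a pleckstrin homology domain, competes with Akt for membrane lipids and so restrains Akt (chromosome 1, 135766119 to 135769136, plus strand). Its RPKM was 1.69 and 2.42 in AnnexinV-positive libraries, against 56.8 and 39.1 in AnnexinV-negative libraries. That is about 261 and 325 reads in AnnexinV-positive libraries, against about 10640 and 5901 reads in AnnexinV-negative libraries. Means were 2.06 ± 0.516 RPKM in AnnexinV-positive and 47.9 ± 12.6 RPKM in AnnexinV-negative libraries (SD, n = 2 each). The lowest AnnexinV-negative library was far above the highest AnnexinV-positive one, and the log2 fold change was -4.47 (SE 0.26, limma adjusted p 2.49e-04). Eda2r encodes a receptor of the tumour necrosis factor receptor family for ectodysplasin A2 (chromosome X, 97333840 to 97377216, minus strand). It had an RPKM of 0.108 and 0.160 in AnnexinV-positive libraries, against 1.21 and 1.504 in AnnexinV-negative libraries. These are about 63 and 81 reads in AnnexinV-positive libraries and about 855 and 858 reads in AnnexinV-negative libraries. Eda2r fell by 2.64 on the log2 scale (SE 0.35, limma adjusted p 0.00305), a size that depends on the pseudocount, being -3.26 with 0.01 and -1.05 with 1. The secreted cytokine Gdf15, a distant member of the TGF-beta family (chromosome 8, 70629393 to 70632456, minus strand), had an RPKM of 6.72 and 10.1 in AnnexinV-positive libraries, against 9.14 and 6.02 in AnnexinV-negative libraries. The groups overlap, with a log2 fold change of 0.15 (interval -0.52 to 0.82, limma adjusted p 0.677).

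**Figure D2:**
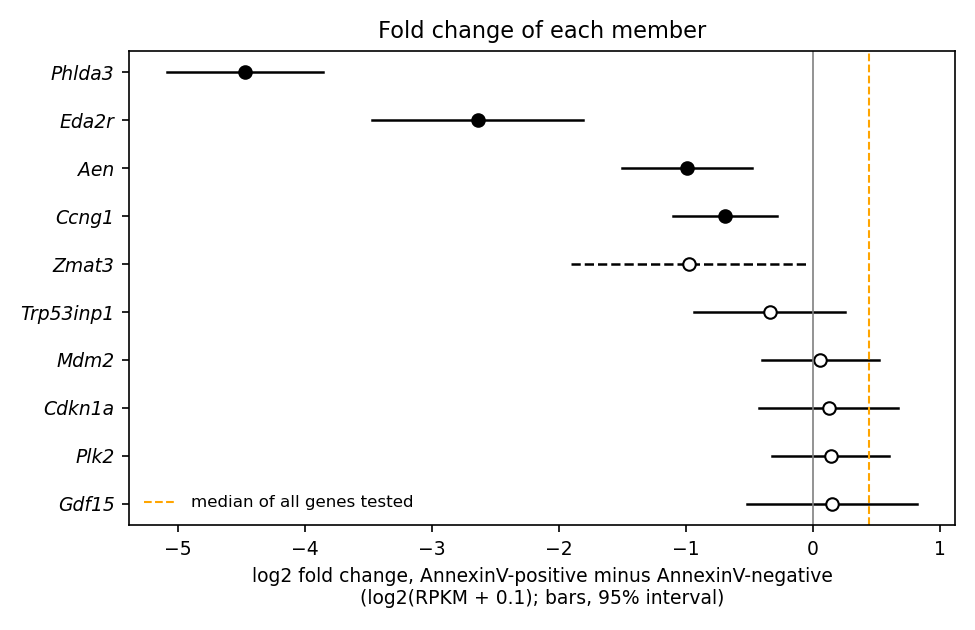
Log2 fold change of each member, AnnexinV-positive minus AnnexinV-negative, with 95% intervals from limma; filled points were called at an adjusted p under 0.05, and the dashed bar is Zmat3 in the fit with no minimum. Phlda3 (-4.47), Eda2r (-2.64), Aen (-0.99) and Ccng1 (-0.69) lie below 0, and the orange line marks the median of all genes tested (0.45).

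A p that misses the threshold does not show equal levels, and the intervals of Cdkn1a, Mdm2, Plk2 and Gdf15 contain both 0 and the median of all genes tested. For 4 of the 9 tested members, and also for Zmat3, the groups did not overlap and AnnexinV-positive cells were lower, against 14.9% of genes tested. In either direction 75.9% of genes tested did not overlap between groups.

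Levels per length can be ordered within a group. AnnexinV-positive cells had, by mean RPKM, Cdkn1a (106.2), Mdm2 (17.6), Ccng1 (14.6), Plk2 (10.9), Gdf15 (8.43), Trp53inp1 (3.52), Phlda3 (2.06), Aen (1.36), Zmat3 (0.357) and Eda2r (0.134). In this order only Plk2 and Gdf15 overlap between neighbours. AnnexinV-negative cells had Cdkn1a (97.6), Phlda3 (47.9), Ccng1 (23.6), Mdm2 (16.8), Plk2 (9.79), Gdf15 (7.58), Trp53inp1 (4.46), Aen (2.79), Eda2r (1.36) and Zmat3 (0.757), with no overlap between neighbours. Phlda3 thus stood at place 7 in AnnexinV-positive cells and at place 2 in AnnexinV-negative cells.

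Ratios between members do not depend on how a library was scaled. Phlda3 made up 1.10% and 1.37% of the members' summed RPKM in AnnexinV-positive libraries, against 24.1% and 20.7% in AnnexinV-negative libraries. Cdkn1a made up 60.2% and 67.9% in AnnexinV-positive libraries, against 47.8% and 43.6% in AnnexinV-negative libraries. Relative to Cdkn1a in the same library, Phlda3 was at 0.0183 and 0.0202 in AnnexinV-positive libraries, against 0.503 and 0.475 in AnnexinV-negative libraries. Gdf15 was at 0.0725 and 0.0848 of Cdkn1a in AnnexinV-positive libraries, against 0.0810 and 0.0732 in AnnexinV-negative libraries, so that pair kept about the same ratio in all 4. Such ratios show unequal change between 2 genes and not which of them changed.

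**Figure D3:**
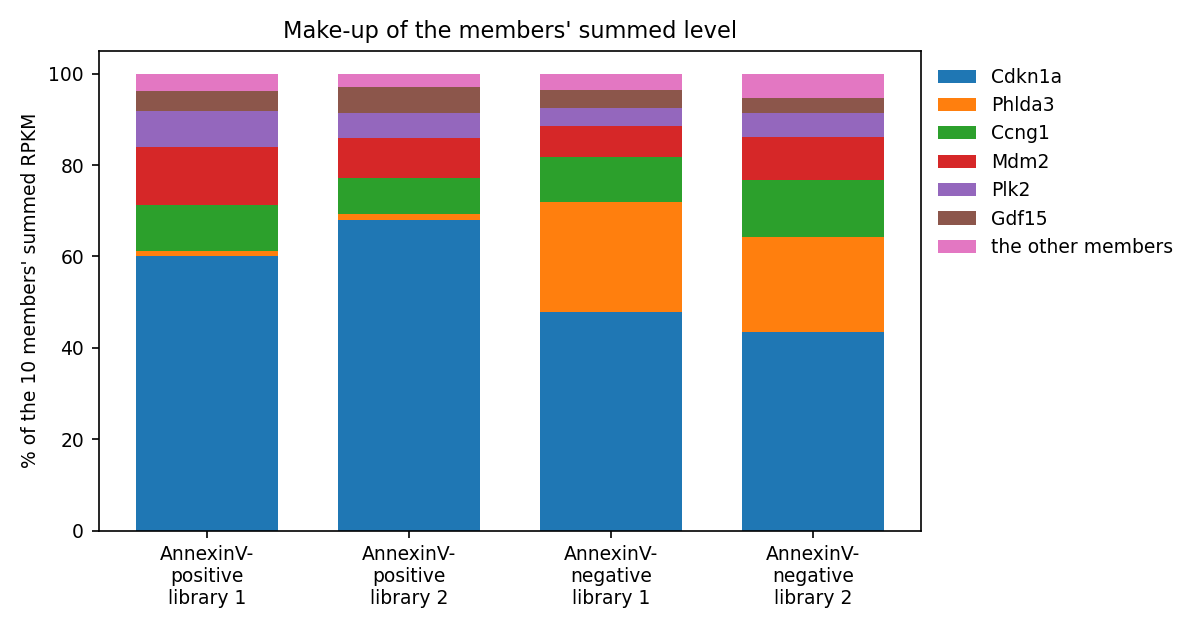
Share of the 10 members' summed RPKM held by each gene in each library, in percent, AnnexinV-positive libraries on the left. The Phlda3 band is 1.10% and 1.37% in AnnexinV-positive libraries, against 24.1% and 20.7% in AnnexinV-negative libraries.

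Members near 0 changed direction with the scale of the libraries, and those that fell did not. Phlda3, Eda2r, Aen and Ccng1 were lower and called on the deposited scale, after centring each library on its median over tested genes, on the TPM scale (each library's values divided by their sum) and with libraries centred on 14 markers of homeostatic microglia. Of all genes tested, 10.8% were lower and called when centred on the median, 19.3% on the TPM scale and 49.4% centred on microglia markers. Cdkn1a, Mdm2, Plk2 and Gdf15 had positive fold changes on the deposited scale and negative ones on the other 3. On the TPM scale, where the median of all genes tested was -0.31, they were at -0.65, -0.71, -0.63 and -0.62 and not called, while Trp53inp1 at -1.10 was called (limma adjusted p 0.0312). Centred on microglia markers, which puts the median of all genes tested at -0.68, all 9 tested members were lower and called, from -5.60 for Phlda3 to -0.97 for Gdf15 (limma adjusted p 0.0468).

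**Figure D4:**
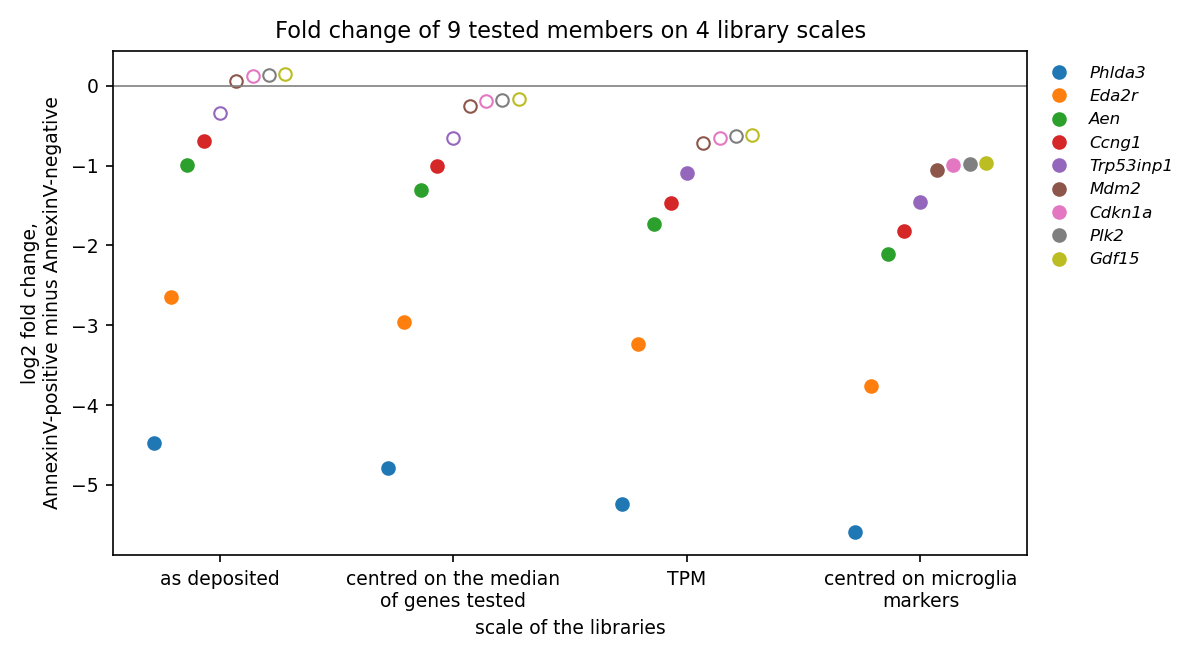
Log2 fold change (AnnexinV-positive minus AnnexinV-negative) of the 9 tested members on 4 library scales; filled points have a limma adjusted p under 0.05. The 4 members lower on the deposited scale are lower and filled on every scale shown, and all 9 are filled when libraries are centred on microglia markers.

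Cell type markers also differed between the sorted fractions. Their counts are set against 9.26% of all genes tested lower and 30.8% higher on the deposited scale. On the TPM scale 19.3% were lower and 114 of 10927 genes higher. Markers of mature oligodendrocytes summed to an RPKM of 218 and 103 in AnnexinV-positive libraries, against 1219 and 643 in AnnexinV-negative libraries, with 14 of 15 lower (Cnp at -3.27) and a median log2 fold change of -4.16. The oligodendrocyte precursor list, which includes the lineage factors Olig1 and Olig2, had 7 of 8 tested members lower. Olig1 had 2.46 and 2.07 RPKM in AnnexinV-positive libraries, against 66.1 and 45.4 RPKM in AnnexinV-negative libraries, a log2 fold change of -4.54 beside -4.47 for Phlda3. Markers were also lower in 8 of 10 tested for astrocytes (Aldoc at -1.27; Slc1a3 at -0.49 was not called), 6 of 8 for endothelial cells (Cldn5 at -2.90, Ly6c1 at -2.90) and 4 of 6 for mural cells (Vtn at -4.55; Acta2 at -1.38 was not called). The same held for 2 of 3 neuron markers (Tubb3 at -4.68, Stmn2 at -3.58) and 2 of 2 of the monocyte and neutrophil list (S100a9 at -4.54, S100a8 at -4.52), out of 10 and 9 listed. As with Eda2r, some of these markers reached the RPKM minimum only through the AnnexinV-negative libraries, so their pass and their difference are not independent: 9 of the 15 mature oligodendrocyte markers, 3 of the 8 precursor, 4 of the 8 endothelial and 3 of the 6 mural markers tested, and the 4 neuron, monocyte and neutrophil genes just named. Homeostatic microglia markers summed to an RPKM of 5734 and 5831 in AnnexinV-positive libraries, against 2220 and 2707 in AnnexinV-negative libraries, and 14 of 14 (Fcrls at 1.25) rose on the deposited scale, but 2 on the TPM scale. Border macrophage markers rose in 3 of 3 tested (Pf4 at 1.19, Ms4a7 at 1.57; 0 on the TPM scale) and 1 of 2 tested of the lymphocyte list (Cd79b at 1.46, 0 on the TPM scale; Nkg7 at -0.90 was not called). Of the 10 listed lymphocyte genes, tested or not, 7 were lower in both AnnexinV-positive libraries than in either other library and 1 was higher. Among genes tested 14.9% were lower in this way, a share that does not cover genes under the RPKM minimum. The summed RPKM of the lymphocyte list overlapped between groups, at 5.94 and 7.21 in AnnexinV-positive libraries, against 10.5 and 5.46 in AnnexinV-negative libraries. The ependymal and choroid plexus list (Ttr at 0.82, Kcnj13 at 0.60) had 0 of 4 called at an adjusted p under 0.05 by limma. Ttr differed widely within groups, with 382.7 and 54.2 RPKM in AnnexinV-positive libraries, against 359.7 and 18.4 RPKM in AnnexinV-negative libraries. In both groups the higher Ttr value was in the library numbered 1. No list had a marker at 0 in all 4 libraries. The part of these cell markers in the members' differences was not tested.

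The genes tested whose profiles over the 4 libraries were closest to that of Phlda3, by Euclidean distance between mean-centred log2 values, were Lrrn1 (distance 0.11, log2 fold change -4.41), the long noncoding RNA Sox2ot (0.21, -4.47) and the neutrophil protein S100a9 (0.25, -4.54). Closest to Eda2r were Spry4 (0.15, -2.76), Rapgef3 (0.21, -2.81) and Gm8307 (0.21, -2.58). With 4 libraries in 2 groups, closeness mostly means a like difference between groups. All of these neighbours reached the RPKM minimum only through the AnnexinV-negative libraries, so their pass and their difference are not independent.

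Calls among other p53 targets depended on the scale, as they did over all genes tested. Of 10 listed apoptotic targets, 9 were tested, 1 rose and none fell on the deposited scale, against 30.8% of genes tested higher and 9.26% lower. Their median log2 fold change was 0.35, below the 0.45 of all genes tested. On the TPM scale 0 were higher and 2 lower, against 19.3% of genes tested lower. Centred on microglia markers 0 were higher and 4 lower, against 49.4% lower. The gene that rose was Pmaip1, a BH3-only protein, at 45.7 and 40.5 RPKM in AnnexinV-positive libraries, against 17.4 and 17.1 RPKM in AnnexinV-negative libraries (1.31, limma adjusted p 0.00298). It was called with libraries centred on the median too, but not on the TPM scale or centred on microglia markers. Bax, the pore-forming effector, was at 33.5 and 49.99 RPKM in AnnexinV-positive libraries, against 32.7 and 29.0 RPKM in AnnexinV-negative libraries, and Ei24 had a log2 fold change of -0.21. Neither was called on the deposited scale (limma adjusted p 0.187 and 0.352), and Ei24 was lower and called on the TPM scale (-0.98) and centred on microglia markers (-1.33).

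Of 20 further targets of arrest, repair and metabolism, all were tested, 3 rose, 1 fell, and the median was 0.25 on the deposited scale, where 30.8% of genes tested were higher and 9.26% lower. On the TPM scale 0 were higher and 5 lower (median -0.48), against 19.3% of genes tested lower. Centred on microglia markers 0 were higher and 15 lower (median -0.87), against 49.4% of genes tested lower. Gadd45a, a stress sensor of growth arrest and DNA repair, fell by 1.38 (limma adjusted p 0.00408), with 3.58 and 3.89 RPKM in AnnexinV-positive libraries, against 11.2 and 8.68 RPKM in AnnexinV-negative libraries. It was lower and called on all 4 scales. Btg2, an antiproliferative gene, had 340.4 and 348.3 RPKM in AnnexinV-positive libraries, against 145.9 and 159.9 RPKM in AnnexinV-negative libraries (1.17, limma adjusted p 0.00449), and Tap1, a peptide transporter of antigen presentation, was at 1.12. Both were called when centred on the median, and neither on the TPM scale or centred on microglia markers. The stress-induced Sesn1 was at 0.59 (limma adjusted p 0.0407), a call lost when any 1 library was left out (adjusted p 0.0644 to 0.226) and turned to a lower call of -0.54 when centred on microglia markers. The most abundant others of the list, Abhd4 (-0.13) and Ephx1 (0.41), were not called on the deposited scale. Abhd4 was called lower on the TPM scale (-0.90, limma adjusted p 0.0102) and centred on microglia markers (-1.25), and Ephx1 centred on microglia markers (-0.71, limma adjusted p 0.0179).

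Trp53, which encodes p53 itself, had 18.7 and 20.4 RPKM in AnnexinV-positive libraries, against 12.3 and 11.7 RPKM in AnnexinV-negative libraries. Its log2 fold change was 0.70 (limma adjusted p 0.0199), and it was not called on any of the 3 other scales, nor without AnnexinV-positive library 1 (adjusted p 0.0799) or 2 (0.151), nor with no minimum on RPKM (0.0509). Of 20 listed genes of p53 and its regulators, 13 were tested. On the deposited scale 2 rose (Trp53 and the checkpoint kinase Chek2, at 0.82) and none fell, with a median of 0.49. Centred on microglia markers 0 were higher and 6 lower. Of all genes tested, 30.8% were higher on the deposited scale and 49.4% lower centred on microglia markers. Chek2 likewise lost its call on each of the 3 other scales and without AnnexinV-positive library 1 (adjusted p 0.115) or 2 (0.101) or AnnexinV-negative library 1 (0.0755). The deubiquitinase Usp7 (0.39) and the ubiquitin ligase Rchy1 (-0.10) were not called on the deposited scale. Rchy1 was called lower on the TPM scale (-0.86, limma adjusted p 0.018) and centred on microglia markers (-1.22), and Usp7 centred on microglia markers (-0.73, limma adjusted p 0.0225). Rpl5 and Rpl11, ribosomal proteins that bind Mdm2, were listed at or under 1.06 RPKM in every library, low for ribosomal protein genes, and their values were not used.

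Paralogs of the members were mostly higher on the deposited scale. Of 14 listed, 11 were tested. On that scale 6 rose and 1 fell, with a median of 0.82, where 30.8% of genes tested were higher and 9.26% lower. Centred on the median 2 rose and 1 fell, where 1133 of 10927 genes tested were higher and 10.8% lower. On the TPM scale 0 rose and 1 fell, against 19.3% of genes tested lower. Centred on microglia markers 0 rose and 3 fell, against 49.4% lower. Phlda1, a paralog of Phlda3, had 10.8 and 14.7 RPKM in AnnexinV-positive libraries, against 7.42 and 6.75 RPKM in AnnexinV-negative libraries (0.82, limma adjusted p 0.0232), a call lost without AnnexinV-positive library 2 (0.184). Ccng2, the paralog of Ccng1, had 28.9 and 28.8 RPKM in AnnexinV-positive libraries, against 14.2 and 17.1 RPKM in AnnexinV-negative libraries (0.89, limma adjusted p 0.0107), and lost its call without AnnexinV-positive library 1 (0.0521) or 2 (0.0577). Among polo-like kinases, Plk3 (1.32) and Plk1 (1.21) rose on the deposited and median-centred scales, and Plk4 (1.01) on the deposited scale, where Plk2 was at 0.14. Plk4 was not called without AnnexinV-positive library 1 (0.0604) or 2 (0.109). Isg20, related to Aen, was at 1.06 (limma adjusted p 0.0286), and not called without AnnexinV-positive library 2 (0.195). Cdkn1b, which encodes p27, fell by 0.73 (limma adjusted p 0.0493), a call lost without AnnexinV-positive library 1 or 2 or AnnexinV-negative library 1 (adjusted p 0.129, 0.251 and 0.146).

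Calls among partners of the members depended on the scale, as they did over all genes tested. Of 10 listed, 8 were tested and 4 rose on the deposited scale, with a median of 0.71. Of all genes tested, 30.8% were higher on that scale, 1133 of 10927 centred on the median and 114 on the TPM scale. Lower were 10.8% centred on the median, 19.3% on the TPM scale and 49.4% centred on microglia markers. Centred on the median 2 were higher (Cdk2 and Ccne1), on the TPM scale 0 were called, and centred on microglia markers 0 were higher and 3 lower, Cdk4 and Ccnd1 among them. Cdk2, a kinase that p21 inhibits, was at 1.05, its cyclin Ccne1 at 1.40 and the replication clamp Pcna, which p21 also binds, at 0.95. Pcna lost its call without AnnexinV-positive library 2 (adjusted p 0.0826). Akt1, the kinase that Phlda3 restrains, had 56.0 and 54.5 RPKM in AnnexinV-positive libraries, against 30.2 and 33.9 RPKM in AnnexinV-negative libraries (0.79), and was not called without AnnexinV-positive library 1 (0.0750) or 2 (0.0716). Cdk4 at 0.43 and the cyclin Ccnd1 at 0.45 were not called on the deposited scale, and were at -0.69 and -0.67 centred on microglia markers (limma adjusted p 0.0399 and 0.0442). The ligand and receptor partners were low: Eda, whose product Eda2r binds, was at or under 0.165 RPKM and Gfral, the receptor of Gdf15, at or under 0.160 RPKM in every library.

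**Figure D5:**
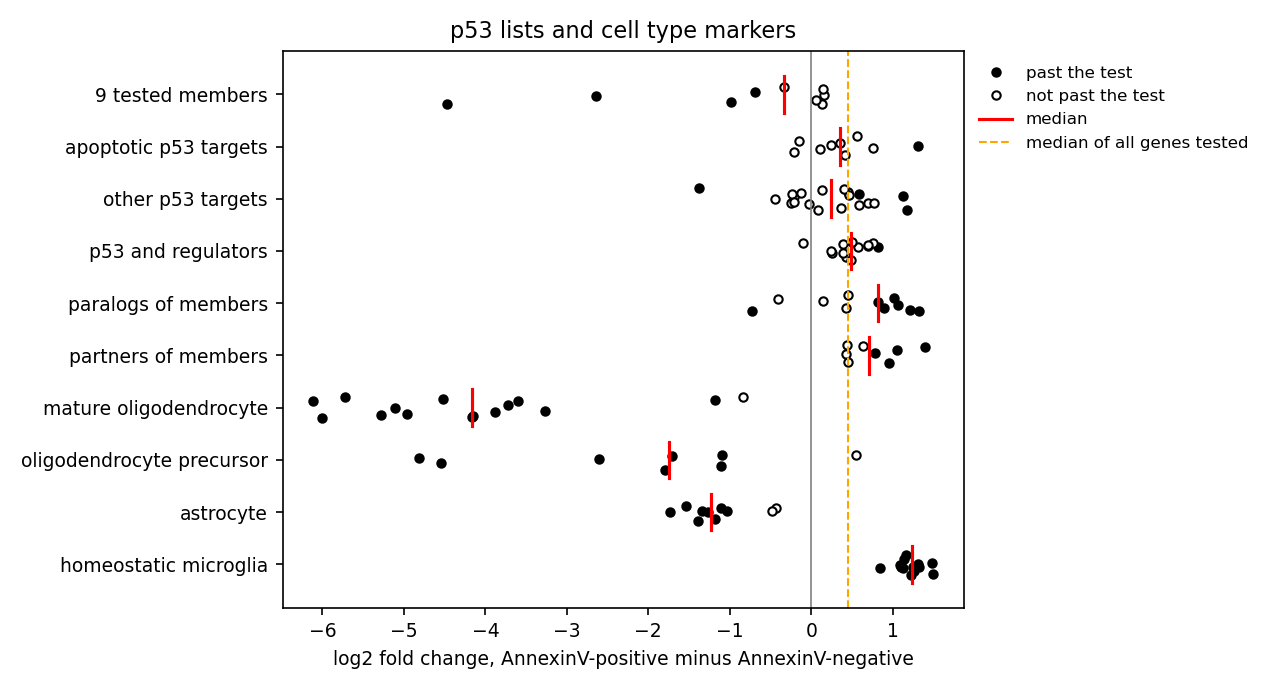
Log2 fold change (AnnexinV-positive minus AnnexinV-negative, deposited scale) of the tested members of each list, filled where called, with the list median in red and the median of all genes tested (0.45) as a dashed line. Medians are -0.34 for the 9 tested members, 0.35 for apoptotic p53 targets, 0.82 for paralogs, -4.16 for mature oligodendrocyte markers and 1.24 for homeostatic microglia markers.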

How the data were processed

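RNA-seq of 4 libraries was deposited as 1 table per library. The submitters' processing notes name GSNAP and mm10, and the sources used here give no counter, annotation release or gene lengths. Per the labels' protocols, tissue was dissociated with an enzymatic kit and libraries were made with the TruSeq v2 kit, which keeps no strand. The header names no unit. The deposited values were read as RPKM from the values: when divided by a step inverse to GENCODE vM21 exonic length, 79.6% to 83.6% of those under 100 reads came within 0.01 of a whole number. Each library's median log2 ratio to the geometric mean over libraries was 0.0289 over 34326 genes above 0 in all of them, a wider set than the genes tested. Read numbers given for genes were recovered from that step and are approximate. Symbols and coordinates are from GENCODE vM21 (GRCm38, the assembly of mm10), which named 52403 of 52636 genes.

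The 10927 genes that reached 1 RPKM in 2 or more libraries entered limma (version 3.58.1, R version 4.3.3) as log2(RPKM + 0.1), using its intensity trend, no covariate and Benjamini-Hochberg adjustment over all of them. With 2 libraries against 2, the smallest p of an exact permutation test is 0.333, and none was run. On simulated data for this comparison, with 10927 genes of which 200 were changed, 62% of genes changed by 1 and 100% of genes changed by 2 log2 units were recovered. Of the unchanged genes, 15 were called. The noise was drawn independently for each value from the fit's own spread, with no error in library scale. The 200 changed genes are a far smaller share than the 40% called in the data. Benjamini-Hochberg adjustment depends on that share, so these rates need not carry over.

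The members and gene lists were chosen with earlier results of these data known. Named genes are all members; in the other p53 lists those called and the 3 most abundant; in cell type lists the 2 most abundant, some of which are not reported here; and the 3 nearest profiles of members changed by at least 2 log2 units. Rpl5, Rpl11, Eda and Gfral were named after their values were seen. Alternatives were the pseudocount, the minimum, 4 other scalings, no trend, a replicate block, that block crossed, and leaving out each library. The crossed block and the scaling on the median log2 ratio were added after the data were seen.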

Additional observations from a re-analysis of the deposited data

How the results depend on the processing

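Phlda3 kept its call and direction under all 15 alternatives run, and Eda2r under all but the minimum on mean RPKM, which it did not reach. The count of members lower (4) was 9 with libraries centred on microglia markers, where 49.4% of genes tested were lower. Aen and Ccng1 lost their calls when either AnnexinV-positive library was left out. Their log2 fold changes were then -0.96 or -1.02 for Aen and -0.77 or -0.61 for Ccng1. In such fits the single library left in that group is assumed to vary like the others. The 3364 genes higher and 1012 lower became 1865 and 2489 with no minimum, 114 and 2104 on the TPM scale, 22 and 5393 centred on microglia markers, and 1133 higher centred on the median. Leaving out a library gave 1297 to 3356 higher. With the median log2 ratio to the gene's mean set to 0 over the 10927 genes tested, a scaling added after seeing the data, 713 were higher, 1303 lower, and the same 4 members were called.

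Directions turned for 4 members that were not called on the deposited scale (all 4 were called, lower, when centred on microglia markers). Centred on the median, Cdkn1a, Mdm2, Gdf15 and Plk2 were at -0.19, -0.25, -0.16 and -0.17; on the TPM scale at -0.65, -0.71, -0.62 and -0.63; centred on microglia markers at -0.99, -1.06, -0.97 and -0.98; with the median log2 ratio set to 0 at -0.29, -0.36, -0.27 and -0.28. Leaving out a library gave ranges of -0.0997 to 0.355 for Cdkn1a, -0.101 to 0.224 for Mdm2, -0.144 to 0.449 for Gdf15 and -0.025 to 0.307 for Plk2. The cause was not tested.

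With the replicate number as a replicate block, 3 members were lower and 0 higher (Ccng1 had a limma adjusted p of 0.0647). Of the 10927 genes tested, 957 were then lower and 2443 higher. Over all genes tested, same-numbered libraries had a weak tendency to deviate from their group means in opposite directions (r = -0.215). The ependymal and choroid plexus list went the other way. It summed to 399.3 RPKM in AnnexinV-positive and 375.7 RPKM in AnnexinV-negative library 1, against 59.6 and 21.0 RPKM in libraries numbered 2. Whether the numbers pair samples is therefore not settled. A crossed block, which swaps the numbers of the AnnexinV-negative libraries, was added after the data were seen, and the labels give no such pairing. With it, 4 members were lower and 0 higher, where 4891 of 10927 genes were higher and 1136 lower.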
